A study of Mus musculus with 6 samples.

Results

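The genes described here are 10 genes of Notch and ephrin signalling that mark or set the arterial or venous state of blood vessels, measured in mouse yolk sac at embryonic day 9.5. They are the receptor genes Notch1 and Notch4, the ligand genes Dll4 and Jag1, the nuclear factor gene Rbpj, the target genes Hey1 and Hey2, the arterial ephrin gene Efnb2, its venous receptor gene Ephb4 and the venous transcription factor gene Nr2f2. They were chosen by symbol, and the platform annotation gave them 11 probe sets of 35557 on the array, 2 for Rbpj and 1 for each other gene. All 10 genes are among 19938 different single symbols in the annotation, and each had 1 probe set bright enough to be tested. A further 6 probe sets that name Notch4 together with Sympk were not used.

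The mutants were 3 yolk sacs labelled Tnrc6a (GW182) mutant, from embryos homozygous for an allele written GW182 gt, a gene trap. They were set against 3 yolk sacs of wild-type littermates. Tnrc6a encodes GW182, the protein that couples Argonaute and its microRNAs to the decay of target mRNAs. Each yolk sac came from 1 embryo and its total RNA went onto 1 Affymetrix Mouse Gene 1.0 ST array. The genotype labels of both groups add mixed, with no further word on it, and the labels do not say which of the 6 embryos came from the same litter. The comparison asks which mRNAs differ in the yolk sac when Tnrc6a is disrupted. Values are the authors' log2 signals, so a difference of 1 is a 2-fold difference. With 3 arrays a group, precision is limited, and standard errors had a median of 0.10.

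Notch receptors are cut when a ligand on a neighbouring cell pulls on them, and the freed intracellular part binds Rbpj and switches on target genes such as Hey1 and Hey2. In the vessels of the embryo, Dll4 acting on Notch1 and Notch4 maintains the arterial state and Efnb2, while Nr2f2 holds Notch signalling down in veins, where Ephb4 is high. Mouse embryos that lack Notch1, Dll4, Efnb2 or Ephb4 fail to remodel the yolk sac capillary plexus into larger vessels. In a whole yolk sac the endothelium is 1 layer beside visceral endoderm, mesenchyme and primitive red cells.

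The promoters of 9 of the 10 genes were read from RefSeq sequences of GRCm38.p6, over the 250 bases before the annotated start; Hey1 was not matched. The search covered TGGGAA, the core of the site that Rbpj binds, and the E-boxes CACGTG and CACGCG, which Hey proteins bind, on both strands. None of the matches overlapped a match of another motif. TGGGAA lay in the windows of 2 of the 9 genes, Hey2 and Rbpj, and in 21.6% of all 32851 windows. CACGCG lay in those of Dll4 and Jag1 and in 7.62% of all windows, and CACGTG in none of the 9 and in 6.02% of all. The windows of Notch1 (the gene whose values did not overlap between genotypes), of Hey2 (the matched Notch target) and of the ligands are shown, 5′ to 3′ along the gene, with matches in capitals.
Notch1 (chr2:26503823-26504072, minus strand): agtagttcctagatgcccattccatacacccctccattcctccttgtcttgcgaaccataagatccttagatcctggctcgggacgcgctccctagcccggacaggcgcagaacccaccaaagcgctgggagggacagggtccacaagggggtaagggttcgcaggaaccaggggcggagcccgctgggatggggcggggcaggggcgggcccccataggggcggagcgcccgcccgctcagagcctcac
Hey2 (chr10:30842784-30843033, minus strand): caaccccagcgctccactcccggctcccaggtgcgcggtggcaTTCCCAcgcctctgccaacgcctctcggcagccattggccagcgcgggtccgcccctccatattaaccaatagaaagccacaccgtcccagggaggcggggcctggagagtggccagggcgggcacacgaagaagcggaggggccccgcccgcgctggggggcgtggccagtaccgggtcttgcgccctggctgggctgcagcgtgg
Dll4 (chr2:119325534-119325783, plus strand): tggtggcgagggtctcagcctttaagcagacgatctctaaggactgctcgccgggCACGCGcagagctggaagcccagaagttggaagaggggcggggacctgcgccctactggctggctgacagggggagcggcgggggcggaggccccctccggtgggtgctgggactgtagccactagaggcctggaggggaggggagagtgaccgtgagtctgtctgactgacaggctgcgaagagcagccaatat
Jag1 (chr2:137116521-137116770, minus strand): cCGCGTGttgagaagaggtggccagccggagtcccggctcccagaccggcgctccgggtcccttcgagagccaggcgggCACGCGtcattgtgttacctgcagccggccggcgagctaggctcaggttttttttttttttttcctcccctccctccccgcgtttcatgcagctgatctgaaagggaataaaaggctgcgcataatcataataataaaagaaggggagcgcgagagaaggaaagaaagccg
The Hey2 match reads TTCCCA, which is TGGGAA on the other strand, and its first base lies at position -207 from the start. The Dll4 match begins at position -195, and the Jag1 matches at -249 (CGCGTG, the other strand) and -171. These matches are letters in a window and were not set against any binding data.

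Tnrc6a itself, the check of the labels, read 7.81, 5.33 and 5.20 in the libraries labelled mutant 1 to 3, against 8.40, 7.62 and 8.29 in wild types 1 to 3. The first of these goes against its label, since it lies above wild type 2. That library is kept in every mutant mean and direction given here, except where a value without it is named. Xist was high in the libraries labelled mutant 1 and 3 and in wild type 1, and low in the other 3. Endothelial identity was present: all 22 shared endothelial markers, such as Tek, Tie1, Kdr and Cdh5, passed the filter on dim probe sets. All 19 visceral endoderm markers with a probe set passed it too. In genes of trophoblast, decidua or parietal endoderm, mutant 2 stood at 0.47 and wild type 2 at 1.26 relative to the wild-type average, and the other 4 libraries between -0.71 and -0.43. In mesenchyme genes wild type 2 stood highest, at 0.50.

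None of the 10 genes passed the test between genotypes. Their means were higher in the mutants for 8 genes and lower for 2, with a median log2 difference of 0.17 and a range from -0.046 for Efnb2 to 0.40 for Hey1. Over all 16387 tested probe sets the median was 0.0063, and 52.4% were higher. The 10 genes were chosen with earlier results of these data known, so their direction is no independent evidence. In limma with Benjamini-Hochberg adjustment, 0 of the 10 had an adjusted p under 0.05 (adjusted p = 0.999 for each), where 0% of all tested probe sets did. At an unadjusted p under 0.05 there were 2 of the 10, Notch1 and Hey1, both higher, where 3.53% of all tested probe sets were under it, 2.25% being higher and 1.28% lower. The methods' t-test put 1 of the 10, Notch1, under its threshold, where 3.83% of all tested probe sets were under it, and 0 after adjustment. The count of genes higher in the mutants ran from 6 to 10 over the alternative settings that kept all 10 genes, leaving out libraries among them. It was 6 only when wild type 1 or mutant 3 was left out. In these bulk samples, fewer cells of a type and less RNA per cell cannot be told apart, nor can more cells and more RNA per cell.

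**Figure D1:**
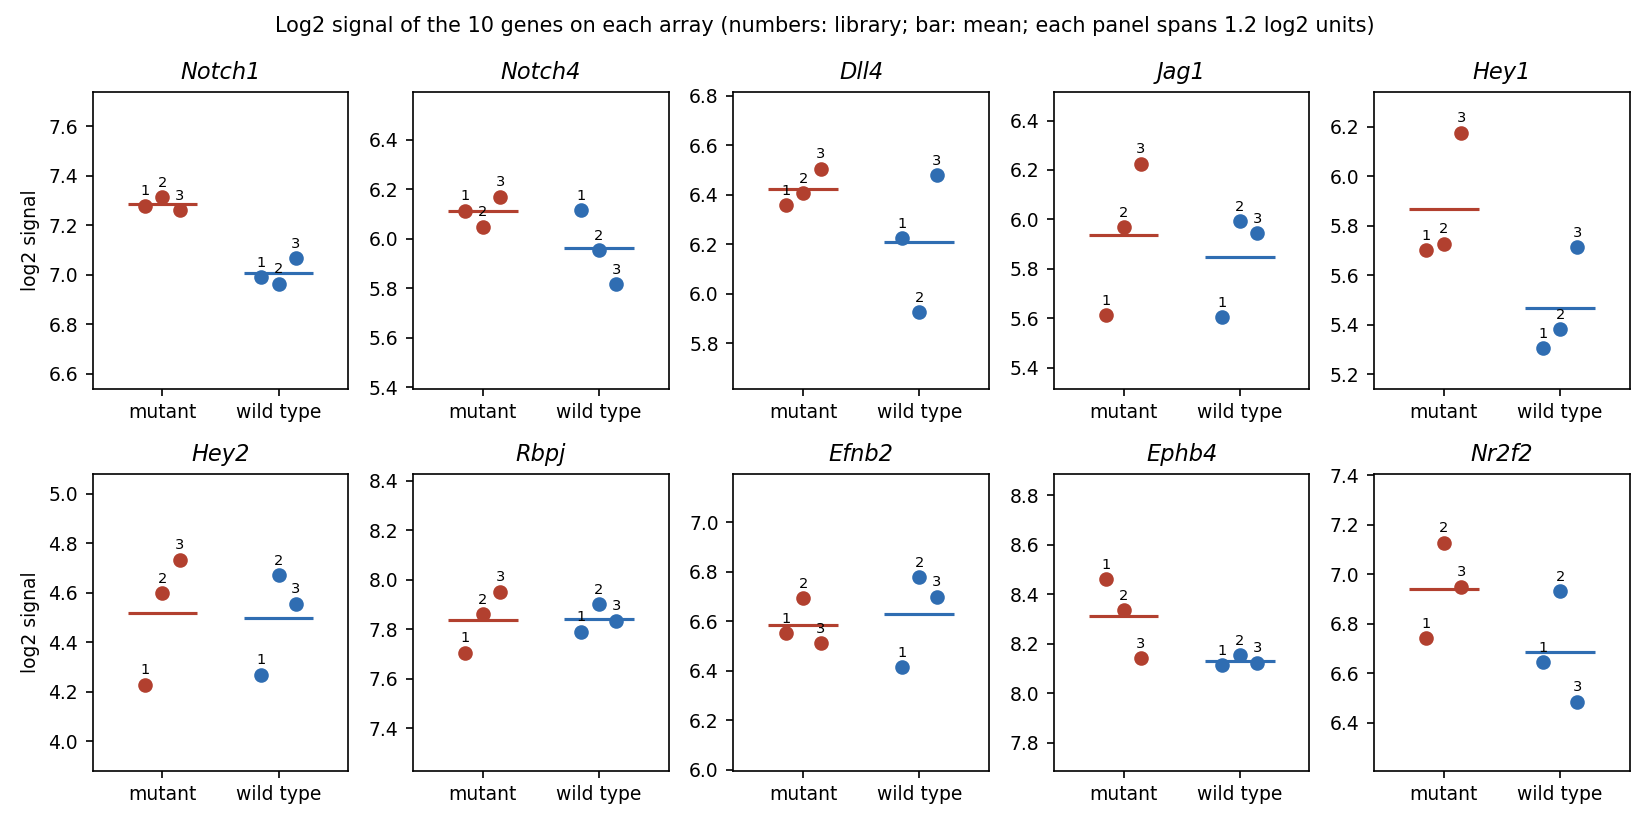
Log2 signal (y axis) of each of the 10 genes in the 3 mutant and the 3 wild-type libraries. Points are single arrays numbered by library, bars are group means, and every panel spans the same height. Of the 10 genes, Notch1 is the one whose groups do not overlap, with mutants from 7.26 to 7.31 above wild types from 6.96 to 7.07.

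The receptor gene Notch1 had the tightest values of the 10 genes. The libraries labelled mutant 1 to 3 had 7.28, 7.31 and 7.26, against 6.99, 6.96 and 7.07 in wild types 1 to 3. Every mutant library lay above every wild-type library, which was so for 1 of the 10 genes and, in this direction, for 5.17% of all tested probe sets (8.55% in either direction). The means were 7.28 ± 0.027 in the mutants and 7.01 ± 0.054 in wild type (SD, n = 3 each). The log2 difference was 0.28 (SE 0.075; 95% interval 0.10 to 0.45), or 1.21-fold (limma p = 0.0066 before adjustment, adjusted p = 0.999; exact two-sided permutation p = 0.1, the smallest that 3 against 3 arrays can give). Its pooled SD within genotypes, 0.042, was smaller than that of all but 3.37% of tested probe sets. Leaving out any 1 library gave a difference between 0.26 and 0.31, and 0.28 without the library labelled mutant 1.

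Notch4, a receptor gene largely restricted to endothelium, read 6.11, 6.05 and 6.17 in the libraries labelled mutant 1 to 3, against 6.12, 5.95 and 5.82 in wild types 1 to 3. The groups overlapped because wild type 1 read as high as the library labelled mutant 1. The log2 difference was 0.15 (SE 0.098; 95% interval -0.08 to 0.38; limma adjusted p = 0.999; exact permutation p = 0.3). It was 0.075 without wild type 3 and 0.22 without wild type 1.

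Dll4, the main Notch ligand of arteries and of sprouting tip cells, read 6.36, 6.41 and 6.51 in the libraries labelled mutant 1 to 3, against 6.23, 5.92 and 6.48 in wild types 1 to 3. The mutants lay close together, while wild type 2 was low and wild type 3 as high as the mutants. The difference was 0.21 (SE 0.14; 95% interval -0.11 to 0.54; limma adjusted p = 0.999; exact permutation p = 0.3). It was 0.071 without wild type 2 and 0.35 without wild type 3.

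Jag1, a ligand gene of endothelium and smooth muscle, differed more between libraries than between genotypes. It read 5.61, 5.97 and 6.23 in the libraries labelled mutant 1 to 3, against 5.60, 5.99 and 5.94 in wild types 1 to 3. The library labelled mutant 1 and wild type 1 were low, mutant 3 was the highest, and the group means were 0.089 apart (SE 0.17; 95% interval -0.31 to 0.49; limma adjusted p = 0.999; exact permutation p = 0.7). Leaving out wild type 1 gave -0.032, leaving out mutant 3 gave -0.055, and leaving out the library labelled mutant 1 gave 0.25. The mesenchyme list was also low on these arrays, at -0.19 relative to the wild-type mean in the library labelled mutant 1 and -0.30 in wild type 1. It stood at 0.28, 0.27 and 0.50 in mutants 2 and 3 and wild type 2, and at -0.20 in wild type 3. That list holds 14 tested genes, none below the filter, with list means of 8.41 to 8.87 in the mutants and 8.30 to 9.09 in wild type. Its part in the Jag1 values was not tested.

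Rbpj, the DNA-binding factor through which all Notch receptors act, differed by -0.0031 between genotypes at its bright probe set (SE 0.091; 95% interval -0.21 to 0.21; limma adjusted p = 0.999; exact permutation p = 1). It read 7.71, 7.86 and 7.95 in the libraries labelled mutant 1 to 3, against 7.79, 7.90 and 7.83 in wild types 1 to 3. The mutants spanned the wild types on both sides. The other Rbpj probe set was below the filter on dim probe sets, with 3.71, 3.46 and 2.96 in the libraries labelled mutant 1 to 3 and 3.46, 3.42 and 3.27 in wild types 1 to 3. On this probe set mutant 3 was the lowest and the library labelled mutant 1 the highest, the opposite of their places on the bright one.

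Hey1, a transcriptional repressor and direct Notch target, had the largest difference of the 10 genes. It read 5.70, 5.73 and 6.18 in the libraries labelled mutant 1 to 3, against 5.30, 5.38 and 5.71 in wild types 1 to 3. Mutant 3 was the highest, and the groups overlapped by 0.01, since wild type 3 lay just above the library labelled mutant 1. The means were 5.87 ± 0.27 in the mutants and 5.47 ± 0.22 in wild type (SD, n = 3 each). The log2 difference was 0.40 (SE 0.16; 95% interval 0.02 to 0.78), or 1.32-fold (limma p = 0.0396 before adjustment, adjusted p = 0.999; exact permutation p = 0.2). Without mutant 3 it was 0.25, and the unadjusted limma p was under 0.05 in 10 of 15 limma alternatives.

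Hey2, the paralogue that marks arteries and the heart, read near the dim limit of 4.29. It had 4.23, 4.60 and 4.73 in the libraries labelled mutant 1 to 3, against 4.27, 4.67 and 4.56 in wild types 1 to 3. As with Jag1, the library labelled mutant 1 and wild type 1 were the lowest and mutant 3 the highest. The difference was 0.022 (SE 0.16; 95% interval -0.35 to 0.39; limma adjusted p = 0.999; exact permutation p = 0.8). Its sign turned without wild type 1 (-0.093), mutant 2 (-0.017) or mutant 3 (-0.085). The difference between the Hey1 and Hey2 responses was not tested.

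**Figure D2:**
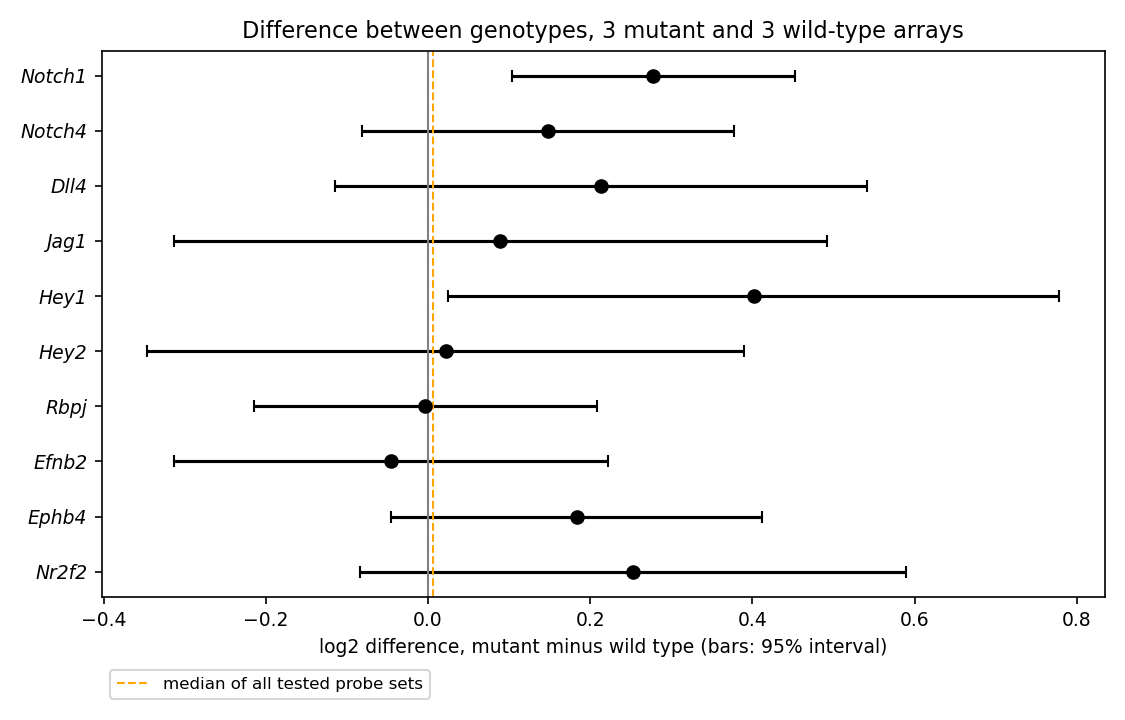
Log2 difference between mutant and wild-type yolk sacs (x axis) for each of the 10 genes, with the 95% interval of the limma fit as a bar. The intervals of Notch1 (0.10 to 0.45) and Hey1 (0.02 to 0.78) lie above 0 before adjustment for multiple tests, and the other 8 cross it; the dashed line is the median of all tested probe sets, 0.0063.

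The arterial ligand gene had a slightly lower mean in the mutants and its venous receptor gene a higher one, and neither passed the test. Efnb2, the ephrin on arterial endothelium, read 6.55, 6.69 and 6.51 in the libraries labelled mutant 1 to 3, against 6.41, 6.78 and 6.70 in wild types 1 to 3. The mutants lay inside the span of the wild types, and the difference was -0.046 (SE 0.11; 95% interval -0.31 to 0.22; limma adjusted p = 0.999; exact permutation p = 0.8). Its sign turned without wild type 2, at 0.029, and wild type 2 was the highest library. Ephb4, the receptor on venous endothelium, read 8.46, 8.34 and 8.14 in the libraries labelled mutant 1 to 3, against 8.11, 8.15 and 8.12 in wild types 1 to 3. The wild types lay close together (SD 0.020), while the mutants ran from that level in mutant 3 up to the library labelled mutant 1. The difference was 0.18 (SE 0.098; 95% interval -0.05 to 0.41; limma adjusted p = 0.999; exact permutation p = 0.2), and 0.11 without the library labelled mutant 1.

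Nr2f2, the nuclear receptor gene of venous endothelium that is also active in mesenchyme, read 6.74, 7.13 and 6.95 in the libraries labelled mutant 1 to 3, against 6.64, 6.93 and 6.48 in wild types 1 to 3. Mutant 2 was the highest, and wild type 2 lay above the library labelled mutant 1. The difference was 0.25 (SE 0.14; 95% interval -0.08 to 0.59; limma adjusted p = 0.999; exact permutation p = 0.2), or 1.19-fold. Leaving out wild type 3 gave 0.15, leaving out mutant 2 gave 0.16, and leaving out wild type 2 gave 0.38. Wild type 2 was also the highest library in the mesenchyme list, at 0.50 above the wild-type mean, and its part in the Nr2f2 values was not tested.

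Which library was high or low differed from gene to gene. Mutant 3 was the highest library for 6 of the 10 genes (Notch4, Dll4, Jag1, Hey1, Hey2 and Rbpj), and wild type 1 was the lowest for 4 (Jag1, Hey1, Efnb2 and Ephb4). Ephb4 ran the other way among the mutants, highest in the library labelled mutant 1 and lowest in mutant 3. The median shift of the 10 genes from their wild-type means was 0.10, 0.16 and 0.24 in the libraries labelled mutant 1 to 3, and -0.047, 0.041 and 0.059 in wild types 1 to 3. Jag1, Hey1 and Hey2 had pooled SDs within genotypes of 0.26, 0.24 and 0.24, above the median of 0.13 over all tested probe sets.

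**Figure D3:**
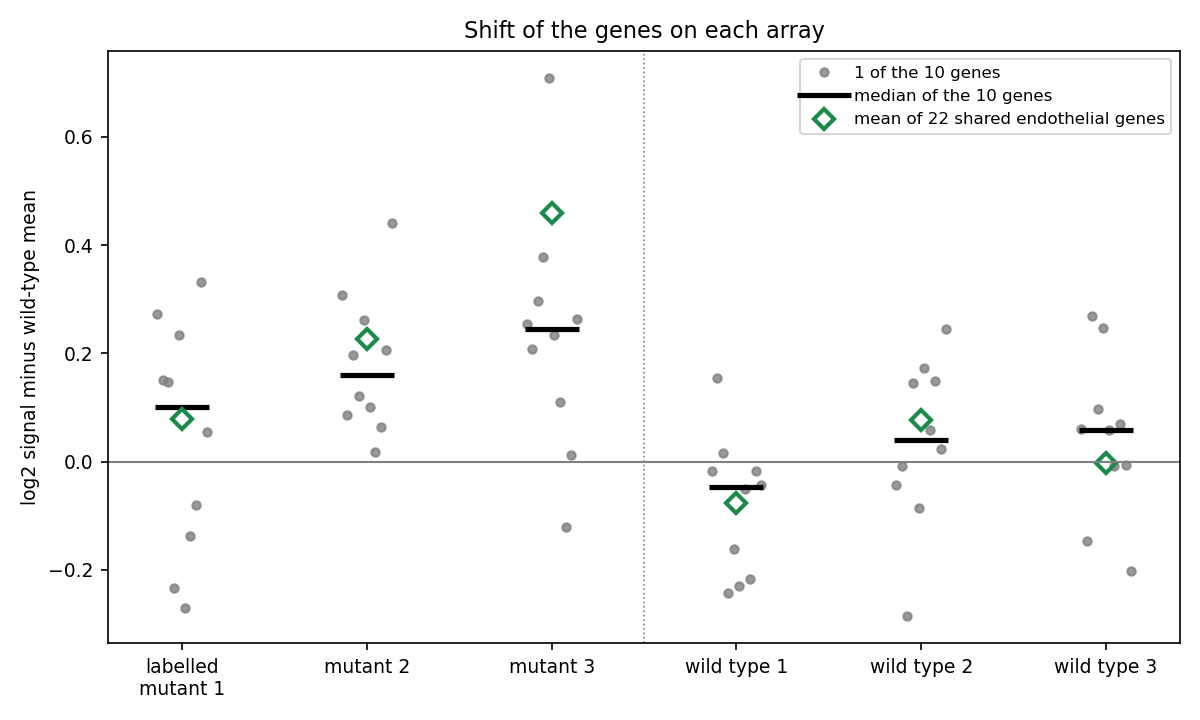
Log2 signal minus the wild-type mean (y axis) on each array for the 10 genes (grey points), their median (black bars) and the mean of 22 shared endothelial genes (green diamonds). The endothelial mean reaches 0.46 in mutant 3, where the median of the 10 genes is 0.24.

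Genes of a list of general endothelial markers were higher too, and their level was set beside that of the 10 genes. All 22 of 22 had higher means in the mutants, with a median log2 difference of 0.23 and a range from 0.12 to 0.40. None passed the adjusted test (limma), 6 had an unadjusted p under 0.05 (3.53% of all tested probe sets did), and 8 had groups that did not overlap (8.55% of all did). This list was assembled with earlier results of these data known, which had shown endothelial genes higher, so its direction is no independent evidence. Emcn and Sox18 also stand in the venous and the arterial list used here, and without them the list mean differed by 0.26, against 0.25 with them. Tie1, an angiopoietin co-receptor gene, differed by 0.28 (SE 0.089), Kdr, the main VEGF receptor gene, by 0.40 (SE 0.13), and Erg, an endothelial ETS factor gene, by 0.38 (SE 0.13). Averaged over the list, the signal was 7.53, 7.68 and 7.91 in the libraries labelled mutant 1 to 3, against 7.38, 7.53 and 7.45 in wild types 1 to 3. The library labelled mutant 1 was level with wild type 2, and mutant 3 stood 0.46 above the wild-type average. The list mean differed by 0.15 without mutant 3 and by 0.34 without the library labelled mutant 1. Its part in the values of the 10 genes was not tested.

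When the endothelial list mean of the same array was subtracted, most of the 10 genes no longer read higher in the mutants. The differences became lower for 8 genes and higher for 2, Hey1 (0.15) and Notch1 (0.023), with a median of -0.089. Of all tested probe sets, 96.3% were lower on this scale, which subtracts a list mean that itself differed by 0.25, so 8 of 10 is not above the background. Notch1 stood at -0.25, -0.37 and -0.65 relative to the list in the libraries labelled mutant 1 to 3, against -0.39, -0.57 and -0.39 in wild types 1 to 3, and its groups overlapped (exact two-sided permutation p = 0.8 over 20 assignments). Leaving out wild type 2 gave 0.066 for Hey1, leaving out wild type 3 gave 0.27, and leaving out mutant 3 gave 0.095. Nr2f2 differed by -0.0018 and Dll4 by -0.041 (exact permutation p = 1 and 0.8). Efnb2 differed by -0.30 and Rbpj by -0.26, both with groups that did not overlap, and Efnb2 by -0.16 without mutant 3. These 2 of 10 stand against 32.4% of all tested probe sets (32.3% lower in the mutants), so this count is not above the background either, and their exact permutation p of 0.1 is the smallest that 3 against 3 arrays can give. The 10 genes were each tested this way, and the design cannot reach 0.05 for any of them.

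**Figure D4:**
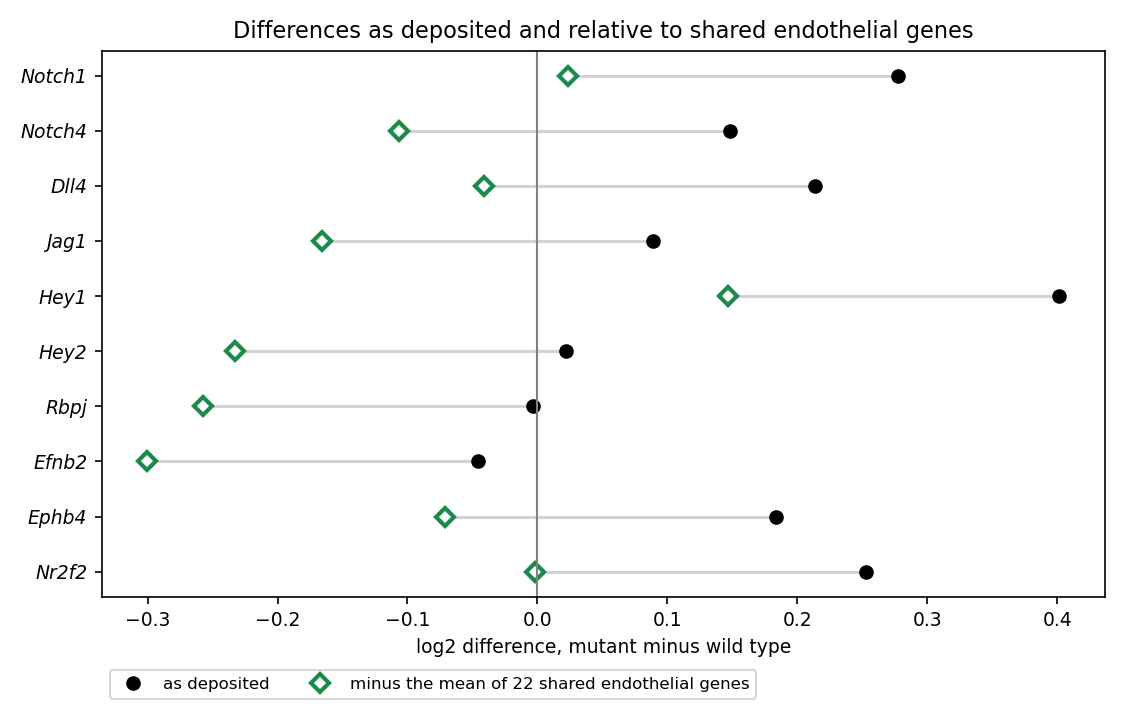
Log2 difference between mutant and wild-type yolk sacs (x axis) for the 10 genes as deposited (black circles) and after subtracting the mean of 22 shared endothelial genes on the same array (green diamonds). Every gene moves left by the 0.25 that the list mean differed; Hey1 stands at 0.15 (0.066 to 0.27 without single libraries) and Efnb2 at -0.30 (-0.37 to -0.16).

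The rest of the Notch pathway showed no adjusted call. Of 52 other Notch genes listed, 47 were tested. In the mutants 33 were higher and 14 lower, with a median difference of 0.056, where 52.4% of all tested probe sets were higher. These genes too were listed with earlier results of these data known, so their direction is no independent evidence. In limma, an unadjusted p under 0.05 was found for 2 (4.26%), both higher, where 3.53% of all tested probe sets were under it. Furin, the protease that cuts Notch receptors on their way to the cell surface, read 8.26, 8.42 and 8.18 in the libraries labelled mutant 1 to 3, against 8.02, 7.90 and 7.99 in wild types 1 to 3 (difference 0.32, SE 0.091; limma adjusted p = 0.999). Kat2b, an acetyltransferase that works with the Notch complex in the nucleus, read 5.51, 5.70 and 5.69 in the libraries labelled mutant 1 to 3, against 5.29, 5.39 and 5.37 in wild types 1 to 3 (difference 0.29, SE 0.087; limma adjusted p = 0.999). In both, the mutants lay above the wild types without overlap. Groups did not overlap for 5 of the 47, where this was so for 8.55% of all tested probe sets.

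Among other receptors and ligands, Notch2 differed by 0.21 (SE 0.094) with groups that did not overlap, and Dlk1 and Jag2 by 0.17 (SE 0.10) and 0.075 (SE 0.11). Of the other processing genes, the gamma-secretase subunit genes Aph1a and Aph1b differed by -0.17 (SE 0.079) and 0.23 (SE 0.17). The Aph1a groups did not overlap either, with the mutants below the wild types. Of the nuclear partners, the coactivator gene Maml1 differed by 0.19 (SE 0.092) and the corepressor gene Cir1 by -0.13 (SE 0.12). Of 11 other Notch targets, 8 were higher and 3 lower, with 0 at an unadjusted p under 0.05 in limma. Nrarp, a Notch target that feeds back on the pathway, had the lowest p of them and a difference of 0.33 (SE 0.15), with 5.91, 5.84 and 6.39 in the libraries labelled mutant 1 to 3 against 5.71, 5.66 and 5.76 in wild types 1 to 3. Its mutants lay above the wild types, led by mutant 3 as for Hey1. Myc and Ccnd1 differed by -0.17 (SE 0.098) and 0.20 (SE 0.12).

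**Figure D5:**
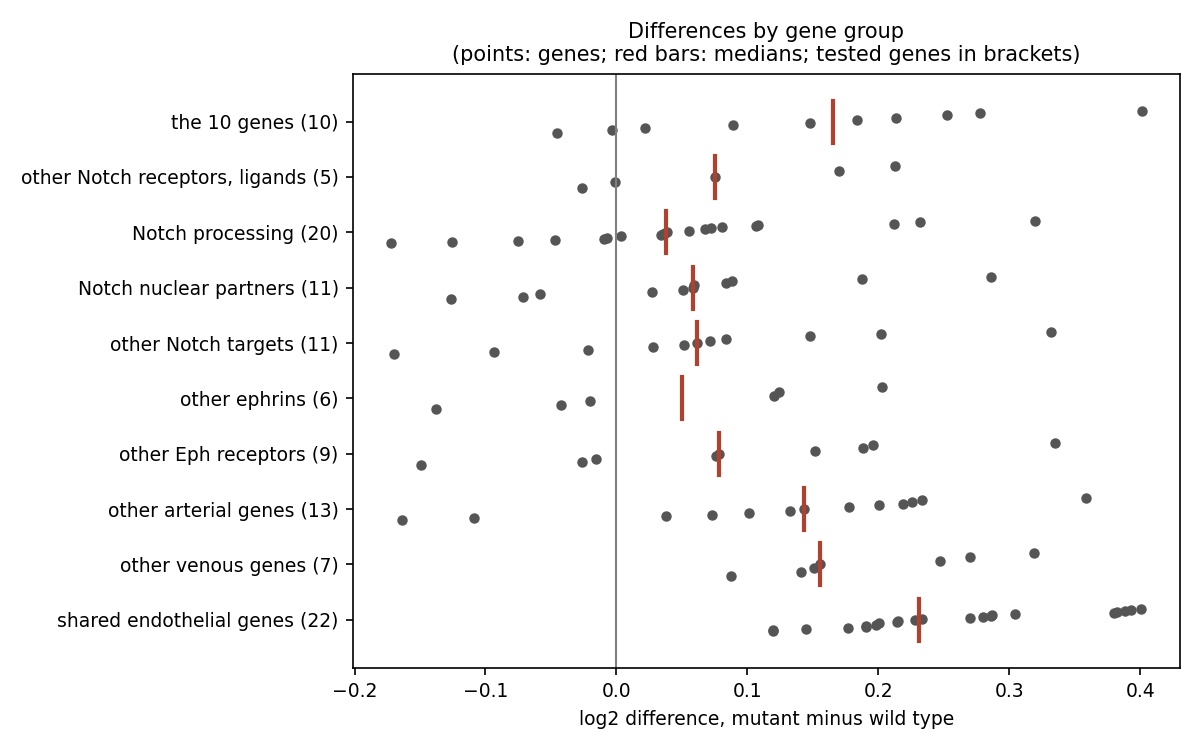
Log2 difference between mutant and wild-type yolk sacs (x axis) of every tested gene (points) in the 10 genes and 9 other gene groups, with the group median as a red bar. The medians run from 0.038 for Notch processing genes to 0.23 for shared endothelial genes, and that of the 10 genes is 0.17.

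Of 20 other ephrin and Eph receptor genes, 15 were tested, 9 were higher and 6 lower, and the median difference was 0.078. Over all tested probe sets 52.4% were higher. Both lists were chosen with earlier results of these data known, so their direction is no independent evidence either. Of 6 tested ephrin genes 3 were higher and 3 lower. The 3 with the lowest p, Efnb1, Efna2 and Efna1, differed by 0.12 (SE 0.084), 0.20 (SE 0.16) and 0.12 (SE 0.15). In limma, 1 of the 15 (6.67%) had an unadjusted p under 0.05, where 3.53% of all tested probe sets did. This was Epha2, an Eph receptor gene of epithelium. It read 6.84, 7.37 and 6.91 in the libraries labelled mutant 1 to 3, against 6.68, 6.68 and 6.76 in wild types 1 to 3 (difference 0.33, SE 0.14; limma adjusted p = 0.999). Mutant 2 held most of that difference. Ephb1 and Epha8 differed by 0.20 (SE 0.098) and 0.15 (SE 0.092).

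Other arterial genes and other venous genes were mostly higher in the mutants. Of 13 tested arterial genes 11 were higher, with a median of 0.14. Of 7 venous genes 7 were higher, with a median of 0.16. Over all tested probe sets 52.4% were higher, with a median of 0.0063. Both lists were chosen with earlier results of these data known, so their direction is no independent evidence. None of these genes passed the adjusted test in limma. Mecom, a transcription factor gene of arteries and blood stem cells, differed by 0.36 (SE 0.11; limma adjusted p = 0.999). The netrin receptor gene Unc5b differed by 0.23 (SE 0.10) and the BMP9 receptor gene Acvrl1 by 0.18 (SE 0.099). On the venous side, Nrp2, a semaphorin and VEGF-C co-receptor gene, differed by 0.25 (SE 0.077; limma adjusted p = 0.999), the scavenger receptor gene Stab1 by 0.15 (SE 0.095) and the apelin receptor gene Aplnr by 0.32 (SE 0.23). Mecom, Unc5b and Nrp2 had groups that did not overlap. Of the 20 tested genes of both lists this was so for 4, against 8.55% of all tested probe sets. The arterial and venous lists were not tested against each other.

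The genes whose array-to-array pattern lay nearest to a member were sought among 13431 tested genes. The measure was the root mean square distance of values centred over the 6 arrays. The nearest of so many genes lie close by selection, and the likeness was not tested. Nearest to Notch1 were Rcan3 and Klhl28, at distances of 0.039 and 0.040, where Notch1 itself varied by 0.14 about its mean. Nearest to Dll4 were Ucn and Gxylt2 (0.049 each, against 0.20), and nearest to Nr2f2 were Fndc3c1 (0.048) and Akap11 (0.049), against 0.21. Rcan3 read 6.45, 6.61 and 6.50 in the libraries labelled mutant 1 to 3, against 6.19, 6.18 and 6.26 in wild types 1 to 3.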

How the data were processed

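Samples were grouped by title. Per the file headers and values, the deposited series table holds 1 log2 value per probe set and array (0.66 to 13.7), made by the authors; MAS5 is the only tool in the submitters' processing notes. The authors' background correction and normalization are unnamed in those notes, and their effect on these differences is unknown. Array medians were 5.19 to 5.22, and values were used as deposited.

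Probe sets with a gene symbol and a mean at or above the 30th percentile (4.29) were tested, 16387 in all. The fit was mutant minus wild type in limma 3.58.1 (R 4.3.3; moderated variances, 4 residual and 3.47 prior degrees of freedom, no block). The Benjamini-Hochberg procedure ran over every tested probe set. The fit was tested on simulated data. Single values were also compared by exact two-sided permutation of the 20 label assignments. The limma p-values set a difference against the spread between these samples, moderated over all tested probe sets. The permutation p-values rank the observed difference among the label assignments.

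Members and lists were chosen with earlier results of these data known. Named genes are the 10, Tnrc6a, Xist, up to 3 genes with the lowest p of each other list, and the 2 genes nearest in pattern to Notch1, Dll4 and Nr2f2. A gene stands by its brightest probe set. Alternatives were other normalizations, filters, variance models and tests, the replicate number as a block, Xist as a covariate, and leaving out libraries.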

Additional observations from a re-analysis of the deposited data

How the results depend on the processing

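Over 17 alternatives the median difference of the 10 genes ran from 0.14 to 0.21, and none of the 10 passed the adjusted limma test (lowest adjusted p = 0.560). Of 168 recomputed gene differences 154 kept their sign. Rbpj turned to 0.0011 after quantile normalization, to 0.013 with Xist as a covariate and to 0.093 when the library labelled mutant 1 and wild type 2 were both left out. Efnb2 turned to 0.016 with array weights, 0.036 with Xist and 0.046 without that pair of libraries. Leaving out single libraries gave -0.059 to 0.064 for Rbpj, -0.15 to 0.029 for Efnb2, -0.093 to 0.17 for Hey2 and -0.055 to 0.25 for Jag1. The cause was not tested. Notch1 was under an unadjusted p of 0.05 in 16 of 17 alternatives, all but the one without that pair.

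Relative to the endothelial list, 94 of 110 differences kept their sign, among them all 10 with the list taken without Emcn and Sox18, an alternative chosen after seeing the data. Nr2f2 turned to 0.031 with the list median and to 0.093 without the pair of libraries, and Notch1 to -0.065 against Pecam1, Cdh5, Tek and Kdr alone and to -0.12 without the pair. Leaving out single libraries gave -0.062 to 0.14 for Notch1, -0.20 to 0.0082 for Notch4, -0.22 to 0.095 for Dll4, -0.23 to 0.12 for Ephb4, -0.11 to 0.095 for Nr2f2, 0.066 to 0.27 for Hey1 and -0.37 to -0.16 for Efnb2, and Hey1 was 0.059 against the 4 genes.

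Over all tested probe sets limma made 0 adjusted calls, and 1, Tnrc6a, without the pair of libraries. That pair holds the mutant with the highest and the wild type with the lowest Tnrc6a, so leaving it out widens that gene's difference by construction. The 579 at an unadjusted p under 0.05 became 1086 with array weights, 1173 without the pair, and 395 to 1372 without single libraries, the highest without mutant 3. With the replicate block the count was 727, with 0 adjusted calls. With the block the SE of Hey1 was 0.079, against 0.16 in the main fit. Same-numbered arrays correlated in their deviations at 0.45, 0.15 and -0.11, and differently numbered arrays at -0.45 to 0.24. So few arrays cannot decide whether the numbers pair the samples.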

Other observations

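The log2 signal of Efnb2 minus that of Ephb4 on the same array, a pair chosen after the values were seen, was -1.91, -1.64 and -1.63 in the libraries labelled mutant 1 to 3 and -1.70, -1.37 and -1.42 in wild types 1 to 3. The means were -1.73 ± 0.16 in the mutants and -1.50 ± 0.18 in wild type (SD, n = 3 each), and the groups overlapped through wild type 1.

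Among the lists of other cell types, the 10 tested primitive erythroid genes were lower in the mutants for 10 of 10, with a median of -0.29, and mutant 2 stood at -0.75 relative to the wild-type mean, where the library labelled mutant 1 stood at -0.059 and mutant 3 at -0.098. Hbb-y, Alas2 and Epb42 differed by -0.25, -0.53 and -0.48. Macrophage genes were lower for 4 of 5 tested. The 3 with the lowest p, Ptprc, Cd68 and Cx3cr1, differed by -0.19, -0.25 and -0.058. Over all tested probe sets, 7797 of 16387 were lower in the mutants, and the median difference was 0.0063. The lists of other cell types were also chosen with earlier results of these data known, so their direction is no independent evidence. Visceral endoderm genes had a median of -0.0032, with Cldn6, Apob and Apoa4 at -0.21, 0.15 and 0.13. Mesenchyme genes had a median of 0.15, with Wt1, Foxf1 and Vim at -0.21, 0.24 and 0.33. Trophoblast, decidua and parietal endoderm genes had a median of -0.24, with Prl4a1, Hand1 and Lamb1 at -1.11 (SE 0.76), 0.23 (SE 0.16) and -0.29 (SE 0.35). Wild type 2 was the highest library in that list, at 1.26 relative to the wild-type mean. Prl4a1 read 7.13 in wild type 2 and 3.51 to 5.14 in the other libraries, and Lamb1 10.7 and 9.30 to 9.60. Of the embryo markers 6 of 12 with a probe set were below the filter, and Myh6, Shh and Nkx2-5 differed by -0.13, 0.12 and 0.074. None of these genes passed the adjusted test in limma (adjusted p = 0.999 for each).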
